A study of Mus musculus with 4 samples.

Results

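The 10 genes described here, Fos, Fosb, Jun, Junb, Egr1, Ier2, Nr4a1, Atf3, Arc and Npas4, are immediate early genes. They were taken by symbol from the Ensembl identifiers of the count table, with the symbols of GENCODE release M21 on the mouse genome GRCm38, and each of the 10 matched a single row among the 45706 genes of that table. The first 8 are known to be induced by many stimuli, tissue dissociation among them, and are called general here. The other two, Arc and Npas4, are known as neuron activity genes. Every member had at least 10 counts and entered the tests below.

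The series holds 4 libraries of RNA from mouse cells labelled as medial basal radial glia, a class of neural progenitor, at E18.5. All 4 were of strain C57BL/6JOlaHsd and genotype Tubb-GFP/+, and all carry the lipophilic dye DiI in their names. How the cells were isolated with this reporter and this dye is not stated, nor is a separate embryo for each library, so p-values here reflect the scatter among 4 samples that may be partly or wholly technical. The libraries form a single group with nothing to compare it with, so an induction of these genes cannot be measured here, and each gene is described by its level, its order among the others and its spread.

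Totals ran from 26540656 to 34837657 counts per library, and no library repeated another. Replicate 4 stood apart over all genes: the chi-square per gene of its counts was 20.1 to 26.3 against each other library, above that of every pair among the other 3, of which replicates 1 and 2 were closest (9.81). The labelled cell type was set beside its markers. All 8 radial glia markers and all 5 basal radial glia markers lay above 1 TPM (TPM is the length-scaled unit of transcript abundance, here by exon length). The markers ran from Fabp7 at 4631 ± 382 TPM (SD, n = 4) down to Hopx at 3.03 ± 0.414 TPM. But 65.9% of all tested genes and 75.7% of protein-coding ones lay above 1 TPM, so such calls do not single out a cell type. Transcripts of other cell types were present too. The 9 neuron markers were all above 1 TPM and summed to between 9701 and 10810 TPM per library. The 6 erythroid markers were all above it too (2377 to 4203 TPM), as were 6 of 10 microglia markers (24.96 to 50.1 TPM) and 2 of 8 endothelial markers (4.42 to 7.28 TPM). All 4 astrocyte, all 4 oligodendrocyte lineage and all 4 intermediate progenitor markers lay above 1 TPM, with 4 of 5 interneuron and 3 of 4 mural markers. No marker was without a count in the 4 libraries together. In bulk RNA, fewer cells of a type and less RNA per cell cannot be told apart, and which cells held the immediate early transcripts was not measured.

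Immediate early genes are transcribed within minutes of a stimulus, without new protein synthesis, because the factors that start them are already bound or waiting in the cell. Serum response factor with its Elk partners, acting at CArG boxes, and CREB, acting at cAMP response elements, are the best known of these. Most of the products are transcription factors: Fos and Jun proteins pair to form AP-1, Egr1 is a zinc finger protein, Nr4a1 an orphan nuclear receptor and Atf3 a bZIP factor of the stress response. Arc is a synaptic protein. In the brain the same genes serve as markers of recent neuronal firing, and after tissue dissociation they are a familiar sign of handling.

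The promoters of the members that stand at the ends of the order of levels are shown first, since the elements that immediate early genes are known for lie there. RefSeq windows of GRCm38.p6, from 250 bases before to 50 bases after a start site, matched 7 of the 10 genes: Fos, Fosb, Jun, Junb, Nr4a1, Atf3 and Npas4. The 250 upstream bases of 5 of them are printed 5′ to 3′ on the gene's strand, with matches to the motifs below in capitals. Upstream here refers to the RefSeq start site. The windows of Nr4a1, Npas4 and Atf3 lie inside the GENCODE M21 gene spans given below, which begin at 101254269, 4990316 and 191218039 in that order. By that annotation these 3 windows are not upstream of the gene. Fos (chr12:85473640-85473889, plus strand) had the highest level of the 10 and Npas4 (chr19:4989972-4990221, minus strand) the lowest. Fosb (chr7:19310046-19310295, minus strand) is the paralog of Fos that lay lowest. Nr4a1 (chr15:101266596-101266845, plus strand) held the most matches, and Jun (chr4:95052223-95052472, minus strand) held none.
Fos: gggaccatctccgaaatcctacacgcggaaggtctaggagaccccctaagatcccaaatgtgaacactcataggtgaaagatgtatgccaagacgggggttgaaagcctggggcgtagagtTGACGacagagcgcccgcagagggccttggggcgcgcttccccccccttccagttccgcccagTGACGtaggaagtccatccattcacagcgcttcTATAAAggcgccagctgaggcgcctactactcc
Fosb: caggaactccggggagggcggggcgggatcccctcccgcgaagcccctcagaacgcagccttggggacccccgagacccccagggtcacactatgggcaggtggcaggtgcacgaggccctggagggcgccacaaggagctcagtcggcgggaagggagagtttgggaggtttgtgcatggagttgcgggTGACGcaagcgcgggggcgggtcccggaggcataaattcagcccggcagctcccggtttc
Nr4a1: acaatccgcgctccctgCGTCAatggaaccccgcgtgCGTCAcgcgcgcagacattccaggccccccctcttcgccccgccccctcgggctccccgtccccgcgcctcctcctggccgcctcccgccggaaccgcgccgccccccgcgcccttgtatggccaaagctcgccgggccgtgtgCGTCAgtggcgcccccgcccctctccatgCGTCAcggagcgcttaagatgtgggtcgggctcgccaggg
Jun: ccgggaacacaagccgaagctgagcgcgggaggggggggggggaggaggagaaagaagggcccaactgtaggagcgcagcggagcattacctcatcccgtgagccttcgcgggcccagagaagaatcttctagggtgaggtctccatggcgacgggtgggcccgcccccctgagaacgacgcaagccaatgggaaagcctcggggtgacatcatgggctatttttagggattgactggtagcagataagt
Npas4: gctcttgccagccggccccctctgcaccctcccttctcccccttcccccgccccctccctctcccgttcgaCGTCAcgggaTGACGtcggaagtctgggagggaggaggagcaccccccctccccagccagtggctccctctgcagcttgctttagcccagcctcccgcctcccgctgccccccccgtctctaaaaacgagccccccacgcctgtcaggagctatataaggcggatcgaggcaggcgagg

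Motifs were searched on both strands of the whole window. The core of the cAMP response element, TGACG (or CGTCA on the other strand), was found in 6 of the 7 windows, against 20.9% of all 32544 distinct windows of that length. Nr4a1 held 4 copies, with first bases at positions -233, -213, -69 and -40, counting the RefSeq start site as 0. Fos held 2, at -129 and -66, and Npas4 2, at -179 and -169, while Fosb (-60), Junb (-106) and Atf3 (-7) held 1 each. The TATA box, spelled TATAAA, was found in Fos at -33 and in Junb at 0, so in 2 of 7 windows against 13.6% of all. The full element TGACGTCA (1.8% of all windows), which contains the core, the AP-1 site TGACTCA (5.19%) and the CArG box (1.64%) were found in none of the 7. A match describes letters in a window and says nothing of binding, and elements farther from the start site lie outside it. Variant spellings of these elements were not searched, such as TGACATCA, which the printed Jun bases hold.

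Fos dominated the set. Its level was 549, 532, 564 and 537 TPM in replicates 1 to 4, and its counts were 11551, 14097, 12738 and 10413. The 4 libraries lay close together, with the highest 1.06 times the lowest. Fos (ENSMUSG00000021250; chromosome 12, 85473890 to 85477273, plus strand, 4 exons) encodes the AP-1 subunit c-Fos. At 546 ± 13.9 TPM (SD, n = 4) it ranked 269 of 15401 tested protein-coding genes, and it supplied 56.6% ± 0.925 of the summed TPM of the 10 genes. The protein-coding genes whose 4 values of log2(TPM + 1) lay nearest to those of Fos were Atp6v1f, Eef1b2 and Higd2a, with a mean absolute difference of 0.0338 to 0.0431 over the 4 libraries. Eef1b2 encodes a translation elongation factor subunit and Atp6v1f a subunit of the vacuolar proton pump.

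The next 4 genes formed a close group below Fos. Nr4a1 (ENSMUSG00000023034; chromosome 15, 101254269 to 101274795, plus strand, 8 exons) was at 109, 115, 108 and 114 TPM, so that Fos exceeded it 4.89-fold. Egr1 (ENSMUSG00000038418; chromosome 18, 2 exons) was at 80.1, 90.3, 112 and 86.2 TPM, with replicate 3 above the other libraries. Atf3 (ENSMUSG00000026628; chromosome 1, 191170296 to 191218039, minus strand, 4 exons) was at 80.2, 86.9, 85.0 and 86.2 TPM. Egr1 spanned the whole range of Atf3 and reached that of Nr4a1. Jun (ENSMUSG00000052684; chromosome 4, 95049034 to 95052222, minus strand, a single exon), which encodes the AP-1 subunit c-Jun, was at 76.5, 70.3, 87.2 and 68.2 TPM and was highest in replicate 3, as Egr1 was. Differences between genes are given here and below as differences in log2(TPM + 1) within libraries. Nr4a1 exceeded Egr1 by 0.28 ± 0.22 (SD, n = 4), Egr1 exceeded Atf3 by 0.11 ± 0.19 and Atf3 exceeded Jun by 0.17 ± 0.18. None of these neighbours kept its order in all 4 libraries.

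Ier2 and Arc stood lower, and apart from the group above them. Ier2 (ENSMUSG00000053560; chromosome 8, 84661331 to 84662852, minus strand, a single exon), a small nuclear regulator, was at 28.6, 25.2, 21.7 and 24.2 TPM. Arc (ENSMUSG00000022602; chromosome 15, 74669083 to 74672570, minus strand, 3 exons), which acts in synaptic plasticity, was at 19.2, 27.2, 22.4 and 19.97 TPM, with its highest value in replicate 2. Jun exceeded Ier2 by 1.56 ± 0.26 (log2, SD, n = 4) and in all 4 libraries, while Ier2 exceeded Arc by 0.17 ± 0.30 and in 2 of 4. The genes nearest to Arc in level were Msrb2, Gadd45b and Slc35f5, with mean absolute differences of 0.052 to 0.0689. Of these, Gadd45b, a stress-responsive growth arrest gene, is itself one of the fixed dissociation-induced genes, at 19.7, 25.3, 21.4 and 19.0 TPM. Msrb2, Gadd45b and Slc35f5 were all highest in replicate 2, as Arc was, which choosing them by their 4 values favours.

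Junb, Fosb and Npas4 were the lowest. Junb (ENSMUSG00000052837; chromosome 8, 84974484 to 84978718, minus strand, a single exon in its longest transcript) encodes an AP-1 subunit that is usually induced with Fos, and was at 4.66, 4.25, 3.62 and 3.06 TPM, a level made uncertain by an overlapping gene described below. Fosb (ENSMUSG00000003545; chromosome 7, 19302696 to 19310051, minus strand, 4 exons) was at 2.18, 2.25, 1.30 and 0.894 TPM, on 122, 158, 78 and 46 counts. Replicate 4 was the lowest library for both. Npas4 (ENSMUSG00000045903; chromosome 19, 4984355 to 4990316, minus strand, 6 exons), a transcription factor known to be induced by calcium influx in neurons, was at 1.49, 1.35, 1.41 and 1.58 TPM, on 55, 63, 56 and 54 counts. Its exact Poisson 95% intervals, which cover counting error only, ran together from 1.04 to 2.07 TPM, and those of Fosb from 0.655 to 2.63 TPM. Arc exceeded Junb by 2.24 ± 0.28 (log2, SD, n = 4) and Junb exceeded Fosb by 0.91 ± 0.18, both in all 4 libraries, while Fosb exceeded Npas4 by 0.077 ± 0.42 and in 2 of 4. Nearest to Npas4 in level were Adamtsl2, Heatr5a and Egf, with mean absolute differences of 0.03 to 0.0517.

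**Figure D1:**
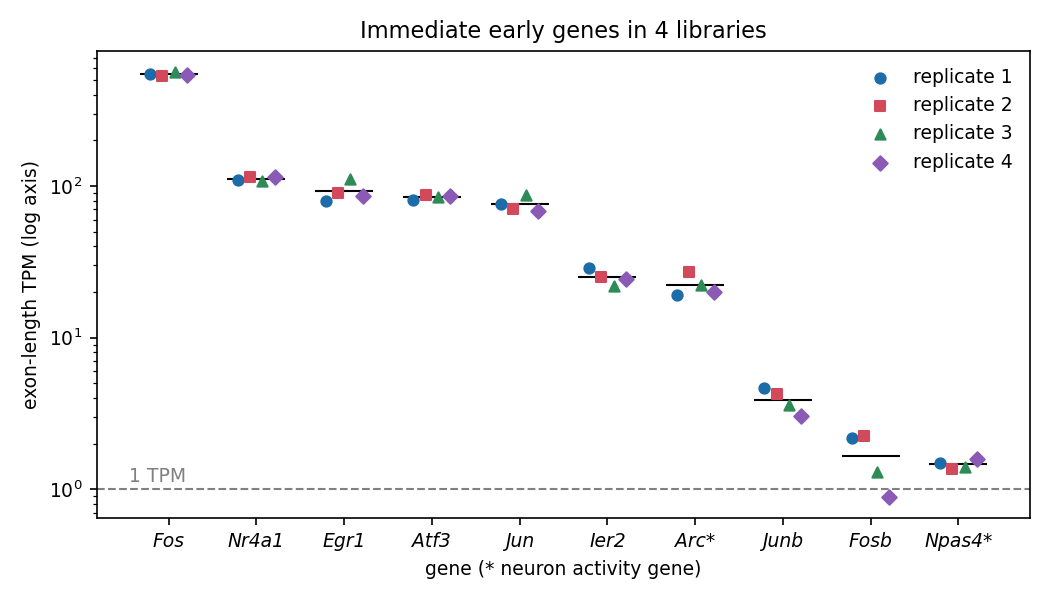
Exon-length TPM (log axis) of the 10 immediate early genes in the 4 libraries, ordered by mean; symbols are libraries, bars are means of the 4, asterisks mark the neuron activity genes and the dashed line is 1 TPM. Fos lies alone at 546 TPM, and Junb, Fosb and Npas4 lie below 5 TPM.

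A quasi-likelihood F test in edgeR set each of 20991 genes against 1 TPM, with Benjamini-Hochberg adjustment over all of them. All 10 members were called above 1 TPM, but so were 65.9% of all tested genes and 75.7% of the protein-coding ones, while 12.1% of all were called below it. The adjusted p was 2.74e-21 for Fos, 4.04e-07 for Junb, 0.0103 for Fosb and 0.0174 for Npas4. Those last 2 calls lay near the threshold. Fosb was not called without replicate 1 (edgeR adjusted p = 0.0717) or 2 (0.0691). Npas4 was not called without replicate 1 (0.0525) or 4 (0.0556), nor with the longest transcript as length (0.194). As log2(TPM + 1), the median level of the 10 genes was 5.49 ± 0.081 (SD, n = 4), beside 2.53 ± 0.053 over all tested genes. The latter include genes that are not protein-coding, and the median of protein-coding genes alone was not computed. It lay between Junb (2.28) and Arc (4.52), whose percentiles among protein-coding genes follow. Single members ranged from percentile 98.2 (Fos) through 90.7 (Nr4a1), 69.6 (Ier2), 67.5 (Arc) and 35.7 (Junb) to 25.6 (Fosb) and 24.2 (Npas4) among the tested protein-coding genes.

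The general genes did not all lie above the neuron activity genes. All 8 had a mean above that of Npas4, but 6 of 8 lay above Arc, the exceptions being Junb and Fosb. On the deposited scale described below, Atf3 lay below Arc too. The mean log2(TPM + 1) of the 8 general genes minus that of Arc and Npas4 was 2.66, 2.45, 2.53 and 2.44 in replicates 1 to 4. That difference was 2.52 ± 0.10 (SD, n = 4). Of the 6 pairs compared, which were chosen among the members, Arc exceeded Npas4 by 3.23 ± 0.27 on the log2 scale, Fos exceeded Fosb by 7.72 ± 0.39 and Jun exceeded Junb by 3.97 ± 0.24. Fos exceeded Jun by 2.84 ± 0.12 and Arc by 4.57 ± 0.23. These 5 differences had the same sign in all 4 libraries, and each gave a p of 0.125 (adjusted over 6 pairs 0.15), the smallest that exact permutation of the signs of 4 libraries, two-sided, can give. The sixth pair, Egr1 minus Nr4a1, differed by -0.28 ± 0.22 (exact permutation p = 0.25), and its sign turned on the deposited scale, where it was 0.69.

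Beside their paralogs, the members held very unequal places. Fos supplied 98.6% ± 0.303 of the summed TPM of the Fos family (SD, n = 4). Fosl2 was at 4.93, 4.19, 3.69 and 4.23 TPM, above Fosb, and Fosl1 at 1.32, 3.36, 1.79 and 1.25 TPM. Fosl1 was called above 1 TPM (edgeR adjusted p = 0.00825) but not without replicate 2 (0.136). Jun supplied 60.2% ± 2.66 of the Jun family, and Jund, known for its steady expression, nearly all the rest, at 51.7, 42.1, 56.9 and 35.7 TPM. Both were highest in replicate 3. The Fos family exceeded the Jun family 4.45 ± 0.533-fold in summed TPM.

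Of the 10 further AP-1 partners in the fixed list, 6 were above 1 TPM and 1 below. Batf and Batf2 had fewer than 10 counts and were not tested. Of all tested genes, 65.9% were above and 12.1% below, and 75.7% of the protein-coding ones were above. The small Maf genes, whose proteins can pair with Fos, were among those above: Mafg at 45.8 ± 3.81 TPM (SD, n = 4), Mafk at 8.22 ± 1.46 TPM and Maff at 3.97 ± 0.94 TPM. Jdp2, a repressor of AP-1, was at 0.295 ± 0.125 TPM and called below 1 TPM (edgeR adjusted p = 0.0235), but not without replicate 2 (0.0592) or 4 (0.0564). Batf3 was at 1.06 ± 0.265 TPM and not called (adjusted p = 0.815). Batf had 2 counts in all, both in replicate 3, and Batf2 none, where a count of 0 allows up to 0.0861 to 0.113 CPM in single libraries, the level of 3 counts.

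Egr1 and Nr4a1 also supplied most of the level of their families, while Ier2 did not. Egr1 supplied 79.7% ± 3.19 of its family, with Egr2 at 22.0, 27.5, 21.01 and 21.3 TPM. Egr3, at 0.159 ± 0.0405 TPM (SD, n = 4), was called below 1 TPM (edgeR adjusted p = 0.00271; 0.149 on the deposited scale), and Egr4 had between 1 and 4 counts per library. The Egr corepressor genes Nab1 and Nab2 were at 17.6 ± 2.18 and 4.34 ± 0.762 TPM. Nr4a1 supplied 85.0% ± 1.26 of its family, beside Nr4a2 at 12.3 ± 0.926 TPM and Nr4a3 at 7.31 ± 1.06 TPM. Of the Ier genes, Ier3, which acts in cell survival, was at 228, 242, 283 and 194 TPM, so that Ier2 supplied 9.03% ± 1.73 of the summed level. Ier5 was at 16.7 ± 2.08 TPM and Ier5l at 2.49 ± 0.31 TPM.

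**Figure D2:**
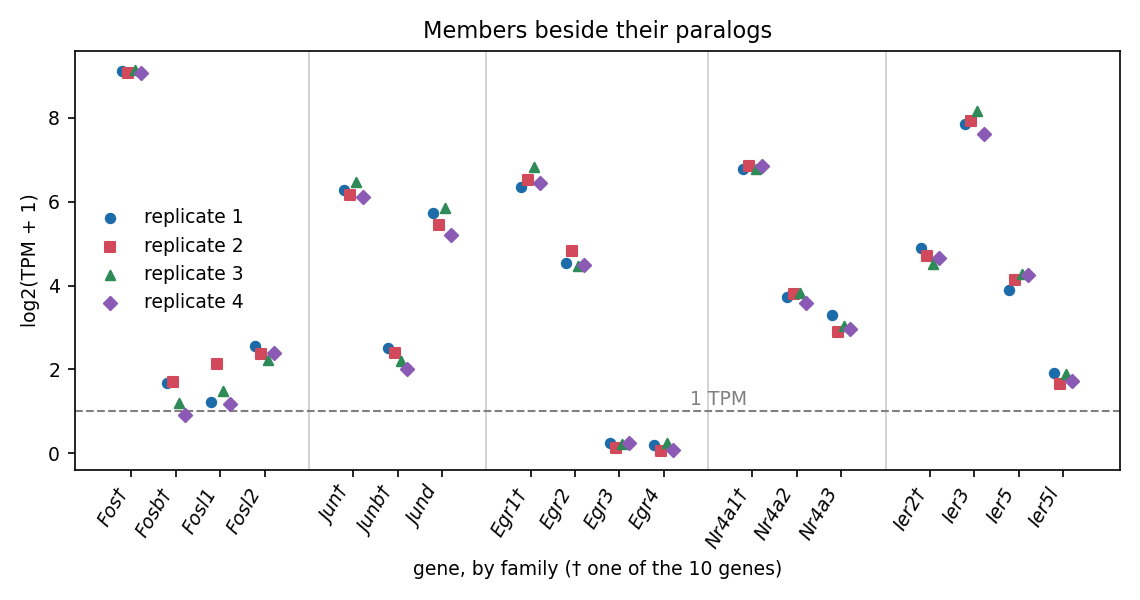
Level on the log2(TPM + 1) scale of the Fos, Jun, Egr, Nr4a and Ier genes in each of the 4 libraries, grouped by family; daggers mark the 10 genes of the set and the dashed line is 1 TPM. In the Fos, Egr and Nr4a families 1 gene holds most of the level, while Jund lies near Jun, and Ier3 lies above Ier2.

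Other genes known to respond to dissociation or to neuronal activity were counted against the 65.9% of all tested genes, and 75.7% of protein-coding ones, that lay above 1 TPM. Of 19 further dissociation-induced genes 17 were above and none below, with a median of 4.97 ± 0.20 (log2(TPM + 1), SD, n = 4), beside 2.53 for all tested genes. The highest were Btg2 (425 ± 21.8 TPM), which also marks intermediate progenitors, the NF-kappaB inhibitor Nfkbia (365 ± 29.8 TPM), Klf6 (191 ± 10.8 TPM) and Ppp1r15a (160 ± 8.20 TPM), a regulator of translation under stress. The 2 genes not called, named after their values were seen, were Klf2 (0.908, 0.0962, 1.58 and 0.197 TPM) and Ctgf (1.13, 1.52, 1.06 and 0.594 TPM). All 13 further neuron activity genes passed as well (median 3.11 ± 0.16), but 11 did on the deposited scale and 12 with the longest transcript as length, with the DESeq2 Wald test, without replicate 1 or without replicate 3. Their highest members were Plk2 (201 ± 28.4 TPM), Scg2 (102 ± 6.16 TPM), Nrn1 (68.1 ± 3.18 TPM) and Rgs2 (42.3 ± 1.72 TPM). Many cells express several of these genes without a stimulus. The median of 2.53 covers genes that are not protein-coding too, so neither list was set against the median of protein-coding genes alone.

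Kinases and transcription factors known to act upstream of the immediate early genes were counted in the same way. All 17 listed genes lay above 1 TPM (16 on the deposited scale, with 1 below), beside 75.7% of protein-coding genes, with a median of 3.79 ± 0.065 (log2(TPM + 1), SD, n = 4). Mapk3, which encodes a MAP kinase, was at 69.9 ± 11.3 TPM, the transcription factor gene Mef2c at 64.0 ± 6.76 TPM and Creb1, the gene of CREB, at 26.2 ± 3.62 TPM.

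The spread between libraries differed widely among the members. The coefficient of variation (CV) of TPM was 2.55% for Fos, 3.18% for Nr4a1 and 3.6% for Atf3, so that the highest library of each was at most 1.08 times the lowest. Of genes within 2-fold of their total count, 9.88%, 9.24% and 7.73% had a smaller CV, in that order. At the other end, the CV was 15.0% for Egr1, 16.3% for Arc and 40.3% for Fosb, and 93.9%, 76% and 87.1% of genes of like count had a smaller one. Npas4 had a CV of 6.88%, below the 13.3% that Poisson counting alone gives on average at its counts.

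**Figure D3:**
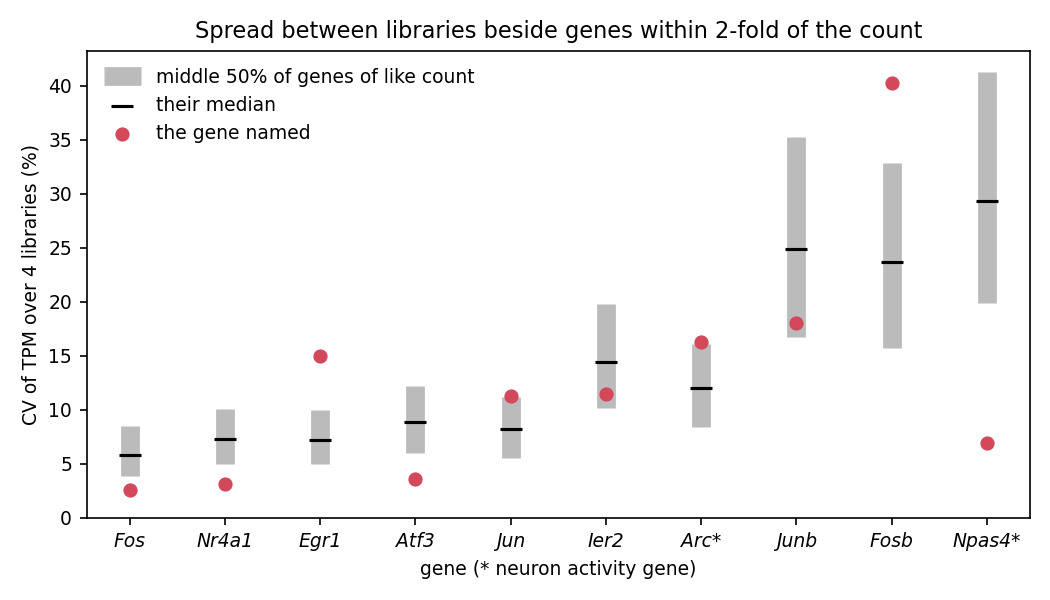
CV of TPM over the 4 libraries for each immediate early gene (red points, in order of level), beside the middle 50% (grey bars) and median (black ticks) of the CVs of genes within 2-fold of its total count. Fos, Nr4a1, Atf3 and Npas4 lie below their bars, and Egr1 (15.0%), Arc (16.3%), Jun (11.3%) and Fosb (40.3%) above theirs.

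A test of excess spread called none of the 10. In edgeR, the quasi-dispersion of each gene between libraries was compared with its trend over abundance. Of 16706 genes tested, 0 (0%) were called after Benjamini-Hochberg adjustment, and 811 had an unadjusted p under 0.05. Egr1 came closest among the members, at 3.94 times the trend (edgeR's adjusted p = 0.974), followed by Fosb at 2.89, Arc at 2.06 and Jun at 1.81 times. Each of 3 of these rested on a single library: without replicate 3 the ratio was 0.912 for Egr1 and 0.484 for Jun, and without replicate 2 it was 0.366 for Arc. Without replicate 4 the ratio was 1.78 for Fosb and 6.79 for Egr1, and neither was called (edgeR's adjusted p = 0.969).

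The libraries did not share a single order across the genes. Replicate 3 held the highest value for Fos, Jun and Egr1, replicate 2 for Fosb, Nr4a1, Atf3 and Arc, replicate 1 for Junb and Ier2, and replicate 4 for Npas4. Of the 10 genes, 6 lay above their own mean in replicate 1, 6 in replicate 2, 5 in replicate 3 and 3 in replicate 4. The median deviation of the members from their own means ran from -0.06 in replicate 4 to 0.031 in replicate 2 (log2(TPM + 1)), beside -0.028 to 0.012 over all tested genes. The summed levels of marker lists differed between the libraries too. The radial glia sum, most of it from Fabp7, was highest in replicate 3 (5727 TPM, against 4737 to 5341 in the others), as Egr1 and Jun were. Vim was highest in replicate 2, Nes in replicate 1 and the other radial glia markers in replicate 3. The basal radial glia, intermediate progenitor, mural and astrocyte sums were highest in replicate 3 too. All basal radial glia markers but Lifr were highest there, and Lifr was lowest there. No intermediate progenitor marker was: Eomes, Sstr2 and Neurog2 were highest in replicate 1 and Btg2 in replicate 4. Of the mural markers only Pdgfrb was highest in replicate 3, and of the astrocyte markers only Aldoc. The erythroid sum was highest in replicate 2 (4203 TPM, against 2377 to 2683), as Arc was. The microglia sum was lowest in replicate 4 (24.96 TPM, against 41.3 to 50.1), as Fosb, Junb and Jun were. Cx3cr1 was lowest in replicate 2, Aif1 in replicate 3 and the other microglia markers in replicate 4. The endothelial sum was lowest there too (4.42 TPM), through Esam and Egfl7, while Pecam1, Cdh5 and Tek were highest in that library. The neuron sum, most of it from Tubb3, was highest in replicate 1 and lowest in replicate 3, as Ier2 was. Tubb3, Neurod2 and Rbfox3 were highest in replicate 1, Gap43 in replicate 2 and the other neuron markers in replicate 4. Without replicate 4, the library that stands apart over all genes, Fosb was 0.93 above 1 TPM on the log2 scale in place of 0.73, and Junb 2.05 in place of 1.95. Whether these cell types, or what sets replicate 4 apart, have a part in the spread of the members was not tested.

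**Figure D4:**
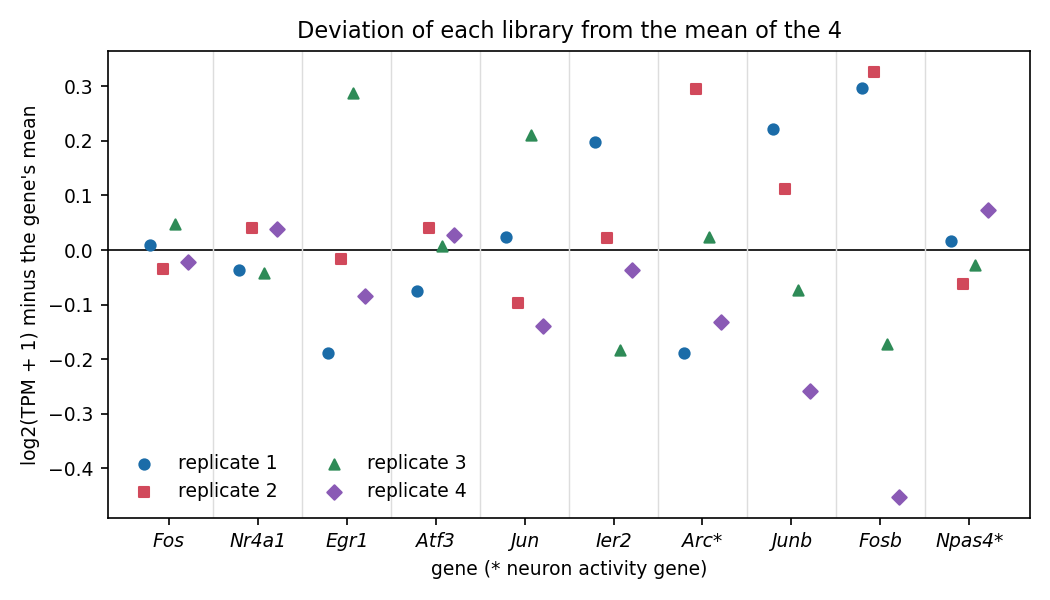
Deviation of each library from the mean of the 4 on the log2(TPM + 1) scale, for each immediate early gene in order of level. Fos, Nr4a1, Atf3 and Npas4 stay within 0.1 of 0, Egr1 and Jun are highest in replicate 3, and Fosb and Junb are lowest in replicate 4.

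The order of the genes depended on the length used. The deposited TPM divides the counts by the whole gene span, introns included: for 96.1% of 9112 genes checked, counts over deposited TPM lay within 0.02 (log2) of a constant times the span in every library, against 1.24% for the exon length. The ratio of span to exon length is 22.2 for Atf3, 5.85 for Nr4a1 and 1 for the single-exon genes Jun and Ier2. On the deposited scale Atf3 was at 13.4 ± 0.499 TPM (SD, n = 4), rank 7 of the 10 in place of 4, Nr4a1 at 173 ± 5.53 TPM (rank 4 in place of 2), Egr1 at 281 ± 42.5 TPM (rank 2) and Jun at 265 ± 30.2 TPM (rank 3). Fos kept rank 1, at 1332 ± 34.5 TPM, and Junb, Fosb and Npas4 kept ranks 8, 9 and 10. With the longest transcript as length, all 10 ranks were those of the exon length.

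**Figure D5:**
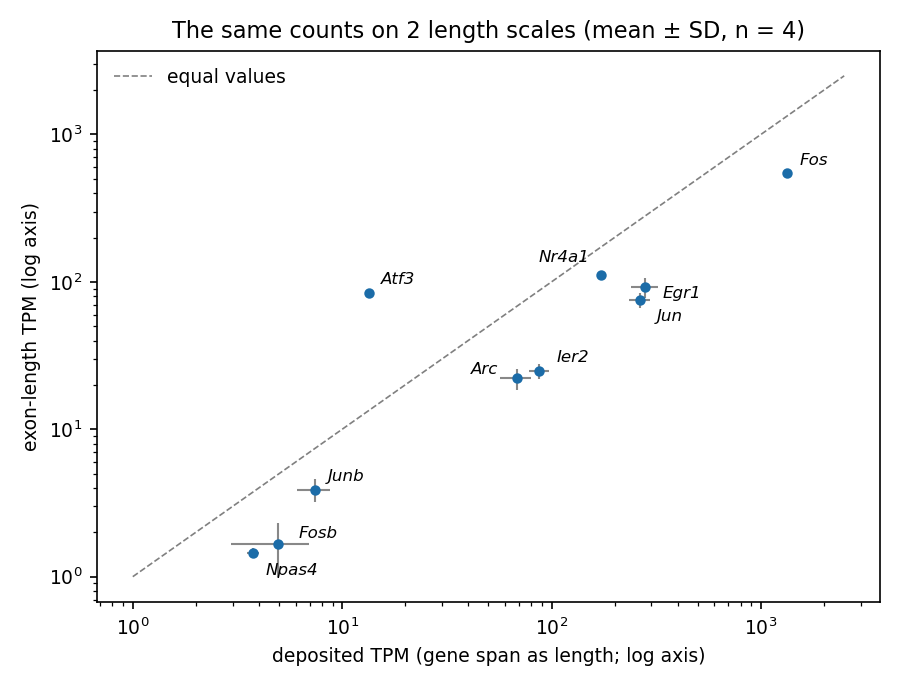
Mean ± SD (n = 4) of each immediate early gene as exon-length TPM against deposited TPM, both on log axes, with the line of equal values. Atf3, whose span is 22.2 times its exon length, is the single gene above the line.

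Other properties of the transcripts bear on single values. An exon of Prdx2, which was at 1226 to 1246 TPM, covers 173 of the 2301 exonic bases of Junb (7.52%) on the opposite strand, and the antisense gene Junos (1.17 to 1.71 TPM) covers 7.28% of those of Jun. The counting is not stated to use strand. Prdx2 had 30996 to 42775 counts per library and Junb 58 to 110. Reads of Prdx2 from the shared bases could thus make up any part of the Junb counts. How reads from shared bases were assigned is not stated either, so reads of Junb there could also be missing. The longest Junb transcript (1809 bases) holds no stretch of 50 bases of Prdx2, so such a loss would mainly touch its other transcripts. The level of Junb is uncertain in both directions. For Jun, Junos had 43 to 67 counts per library against 1792 to 2671. No other member overlapped an exon of another gene. Apart from 5.83% of Jun shared with Junos, no stretch of 50 bases of a member's longest transcript occurred in a transcript of another gene. The GC content was highest for Junb (62.6%), Ier2 (60.9%) and Arc (59%), above 98.8%, 97.2% and 93.1% of the tested protein-coding genes, whose median was 49.9%. That of Fos was 51.9% and that of Fosb 56%. The cDNA was amplified before library preparation, and whether GC content has a part in these levels was not tested.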

How the data were processed

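RNA from 4 libraries of a single group was analysed. Poly-dT priming and template switching gave cDNA that was amplified and sheared, per the labels' protocols. Per the submitters' processing notes, bcl2fastq 2.19.1, STAR 2.5.2b and GRCm38 were used; which tool counted, with which strand setting and annotation, is not stated in those notes or labels. The authors deposited whole-number counts per Ensembl gene, not normalised, and a TPM table of 15648 genes, whose length was tested from its values.

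TPM was recomputed from the counts with merged exon lengths of GENCODE M21, to which 45143 identifiers matched; the others held 0.12% to 0.125% of counts. Levels were tested in edgeR 4.0.16 (R 4.3.3) with offsets for the count expected at 1 TPM, for genes with at least 10 counts, and the quasi-likelihood F statistic was computed from edgeR's fit because its test function takes no intercept-only design. Spread was tested for genes with at least 40 counts, with TMM scaling. The threshold was an adjusted p of 0.05 and the pseudocount 1 TPM. Alternatives were DESeq2 1.42.0, other scalings, filters, lengths and pseudocounts, and each library left out.

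Named were the 10 genes, their families, the 4 highest members and those below 1 TPM of other lists, the highest and lowest markers, and the 3 genes nearest in level to Fos, Arc and Npas4; 1 gene that this rule names is not reported here. Members and lists were chosen with earlier results of these data known.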

Additional observations from a re-analysis of the deposited data

Results flagged for a closer look

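Of 40 named genes examined for a library that stands apart from the other 3, 4 were singled out because the gap to the nearest library made up most of the gene's range. Chance singles out about 1 in 20 groups. None of the 10 immediate early genes was among them. Egr2 was at 27.5 TPM in replicate 2, against 21.01 to 22.03 TPM in the others. Batf was at 0.148 TPM in replicate 3, on 2 counts, with no count in the others. Btg2 was at 392 TPM in replicate 1, against 433 to 439 TPM, and Creb1 was at 31.6 TPM in replicate 4, against 23.96 to 24.66 TPM.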

How the results depend on the processing

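Of 256 values recomputed under an alternative setting, 243 kept their direction and their side of the threshold or stayed within their spread, 7 moved, 5 lost their call and 1 reversed. The reversed value was Egr1 minus Nr4a1, 0.69 on the deposited scale. The mean of general minus neuron activity genes was 2.06 on the deposited scale and 2.75 with a pseudocount of 0.1 TPM, and 2.48 to 2.55 when each library was left out. The number of members above 1 TPM was 9 with the longest transcript as length and 8 to 10 when each library was left out. The 5 lost calls were those of Fosb and Npas4 given above. Among all genes, the number above 1 TPM was 13828 (13535 to 13665 without each library) and the number below it 2532, which was 6564 with no filter except 1 count and 1525 to 1707 without each library. The count of more variable genes was 0, and 0 to 2 without each library. No paired analysis was possible because the design has a single group. Depth limits Npas4, Fosb and Junb, which rest on 228, 404 and 344 counts in all.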
